A study of Mus musculus with 10 samples.

Results

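Translation initiation factors and the 4E-BP repressors are described here across tumour-infiltrating T cells that lack the TGF-beta receptor gene Tgfbr2, the cytokine gene Il4, both or neither. The members are the 48 genes whose symbol starts with Eif1 to Eif6, out of 17363 named genes in the expression table. The 4 Eif2ak genes, which code for kinases of eIF2, and pseudogenes were left out. The members were selected by name alone. They were put forward as a group with results of these data already known, and all of their values are therefore given as descriptions and are not used as support for one another.

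Initiation factors bring the small ribosomal subunit to the start codon of an mRNA. The eIF2 complex delivers the initiator tRNA, eIF2B recharges eIF2 with GTP, and eIF3 is the large scaffold on the small subunit. The eIF4F complex, made of the cap-binding protein eIF4E, the scaffold eIF4G and the helicase eIF4A, recruits the mRNA through its cap. The 4E-BPs (genes Eif4ebp1, Eif4ebp2 and Eif4ebp3) block the binding of eIF4E to eIF4G until the kinase mTORC1 phosphorylates them, and this control is active when T cells are stimulated and grow. RNA levels, which were measured here, do not report phosphorylation or translation.

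All libraries came from C57BL/6 mice carrying PyMT, an oncogene transgene that causes mammary tumours, at 23 weeks of age, and all mice carried floxed Tgfbr2 (Tgfbr2fl/fl). The cells were CD4+CD25- T cells sorted from digested breast tumours. The WT group had neither Cre nor the Il4 deficiency. In the KO group a ThPOKCre transgene, active in the CD4 lineage, deletes Tgfbr2. The IL4-/- group was deficient in Il4 without Cre, and the IL4-/-KO group carried both changes. There were 2 replicates per genotype. The RNA of each KO replicate was made into a library on 2 independent occasions, called the first and the repeat library, so the 8 replicates are covered by 10 libraries. The labels do not say whether replicates were separate mice, so p-values measure only how far these samples spread, and that spread may be technical.

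The values are normalized counts, that is, reads per gene divided by 1 factor per library. Library sizes formed 2 ranges that did not overlap. The WT and first KO libraries held 17121030 to 18479090 reads in named genes and are called the shallower libraries. The KO repeat, IL4-/- and IL4-/-KO libraries held 28003231 to 33802781 and are called the deeper libraries. Every WT replicate was thus in the shallower set and every replicate without Il4 in the deeper set, so that genotype and library set cannot be told apart in a comparison of WT with IL4-/-. Tgfbr2 measured 7876 and 7894 in WT, 5828 and 5803 in the first KO libraries, 7632 and 9442 in the KO repeats, 13816 and 12544 in IL4-/-, and 7762 and 8205 in IL4-/-KO. Tgfbr2 was thus below both WT replicates in 3 KO libraries and above both in the KO 2 repeat. Il4 measured 107 and 276 in WT, 426 and 523 in KO (first libraries), 352 and 236 in the KO repeats, 97.2 and 75.4 in IL4-/-, and 98.7 and 39.7 in IL4-/-KO. Every library labelled as lacking Il4 was below every other library, though none was at 0. Both rows count reads over whole genes, and the labels do not say which part of either gene is missing, so reads outside that part may be included, and genotype names below are those of the labels. All 11 T cell markers found of 14 were above 0 in every library, with Cd3e between 13302 and 33606 and Cd4 between 12165 and 40172. Markers of mammary and tumour epithelium were also present, with summed values of 25270 to 170278 in WT, 58987 to 131756 in KO, 19785 to 48409 in IL4-/- and 13752 to 29860 in IL4-/-KO. Summed macrophage and monocyte markers were 113647 in IL4-/- replicate 2 and 9414 to 20652 in the other libraries. Neutrophil markers summed to 5891 in KO 1 and 6788 in its repeat, and the other libraries did not exceed 995. In such bulk samples, fewer cells of a type and less RNA per cell cannot be told apart.

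The member that separated the 2 library sets most was Eif4ebp2, which codes for the 4E-BP2 repressor of eIF4E. The gene lies on the minus strand of chromosome 10 at 61428491 to 61452661 (mm10) and has 3 exons in its longest annotated transcript, of which 360 of 5784 bases are coding. Eif4ebp2 measured 266 and 120 normalized counts in WT replicates 1 and 2, and 316 and 323 in the first KO libraries. From the RNA of the same KO replicates, the repeat libraries gave 1654 and 2623. The IL4-/- replicates measured 1991 and 1903, and the IL4-/-KO replicates 1930 and 2003. The 4 shallower libraries thus lay between 120 and 323 and the 6 deeper libraries between 1654 and 2623, with no overlap, and within the KO genotype the first and repeat libraries of 1 RNA fell on opposite sides.

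**Figure D1:**
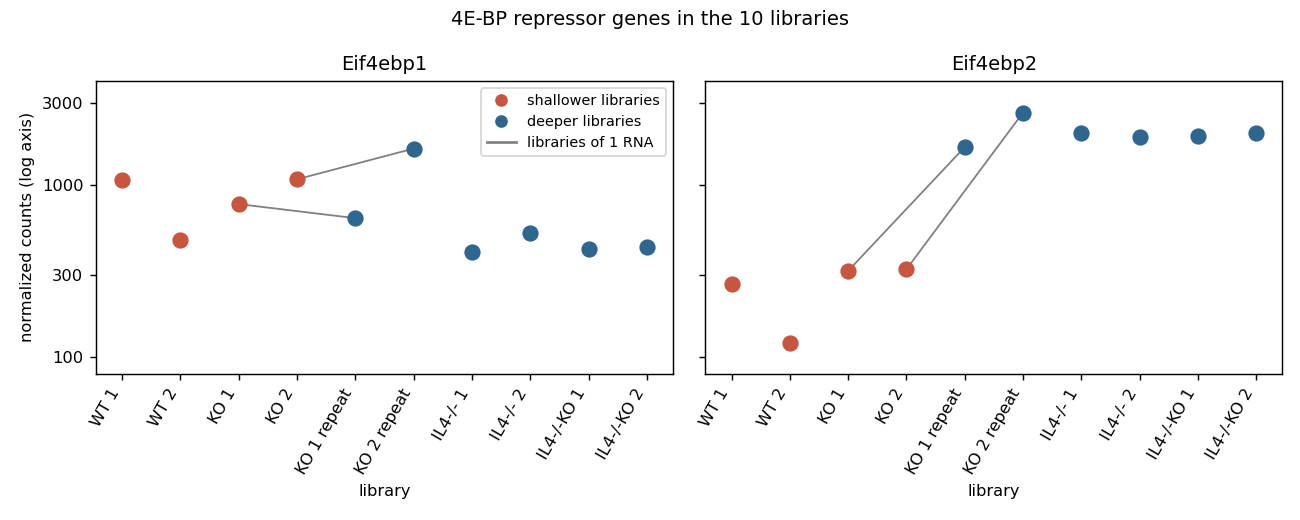
Normalized counts (log axis) of Eif4ebp1 and Eif4ebp2 in each of the 10 libraries; red points are the shallower libraries, blue points the deeper ones, and grey lines join the first and repeat library of the same KO RNA. Eif4ebp2 lies between 120 and 323 in all red points and between 1654 and 2623 in all blue points, while Eif4ebp1 shows no such gap.

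Repeat over first library, Eif4ebp2 was 5.23 times as high in KO replicate 1 and 8.12 times as high in KO replicate 2. On the log2(normalized count + 1) scale these differences were 2.38 and 3.02, with a mean of 2.70 ± 0.30 (SE, 2 pairs) in a limma fit across all genes that kept the RNA as a block (unadjusted p = 0.00644, limma adjusted p = 0.556). This fit had 1 residual degree of freedom. Eif4ebp2 was the one member more than 2 log2 units higher in both repeats, as were 64 of the 14473 genes tested (0.442%).

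The genotype differences of Eif4ebp2 changed with the libraries that entered. With both libraries of each KO replicate averaged, KO exceeded WT by 2.74 ± 0.44 on the log2 scale (limma adjusted p = 0.25). With the first KO libraries alone, which belong to the same set as WT, the difference was 0.83 (limma adjusted p = 0.557), and with the repeats alone it was 3.53. IL4-/- exceeded WT by 3.44 ± 0.44 (limma adjusted p = 0.358), and by 0.74 once a term for the library set was added to a fit of all 10 libraries. IL4-/-KO and IL4-/-, both from deeper libraries, differed by 0.015 ± 0.44. IL4-/-KO exceeded KO by 0.71 ± 0.44 with all KO libraries averaged and by 2.62 with the first ones, and the difference was -0.08 with the repeats. The value that asks whether the Tgfbr2 difference depended on Il4 (the interaction) was -2.73 ± 0.62 (limma adjusted p = 0.988), and it was -0.82 with the library set term. With the mean of the epithelium markers as a covariate, the difference between KO and WT was 2.67.

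Eif4ebp1 codes for 4E-BP1, the most studied mTORC1-controlled repressor of eIF4E, and did not follow the library sets. It measured 1064 and 481 in WT, 772 and 1076 in the first KO libraries, 639 and 1621 in the KO repeats, 405 and 527 in IL4-/-, and 425 and 433 in IL4-/-KO. All 4 KO libraries lay above all 4 libraries without Il4, while the WT replicates spanned the range between. How many of all genes separate in this way was not counted. Summed epithelium markers were also higher in all KO libraries, at 58987 to 131756, than in those without Il4, at 13752 to 48409. In WT replicates 1 and 2 they were 170278 and 25270. Their part in the Eif4ebp1 values was not tested. IL4-/-KO was lower than KO by a log2 difference of -1.18 ± 0.52 (unadjusted p = 0.0532, limma adjusted p = 0.438), and KO against WT was 0.45 ± 0.52. Without WT replicate 2 the latter was -0.13, and without WT replicate 1 it was 1.02. Over the 8 replicates, the genes whose log2 values were most correlated with Eif4ebp1 were Cyp21a1 (Pearson r = 0.987), Styxl1 (0.983), Pip4k2c (0.982), Fez1 (0.980) and Pgap2 (0.965). These are descriptions over 8 replicates that share genotypes and library sets, chosen as the highest of all genes tested.

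Eif4ebp3, the gene of the third 4E-BP, was at or near the detection limit. It was at 0 in all 4 KO libraries, where 3 reads, the upper limit that a count of 0 allows, correspond to at most 4.41 normalized counts. It measured 1.32 and 5.28 in WT, 0 and 1.29 in IL4-/-, and 9.65 and 0 in IL4-/-KO. It was the 1 member of 48 that did not reach 10 normalized counts in 2 replicates, and the 47 others were tested.

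Across the 47 members tested, 3 had every deeper library above every shallower one: Eif4ebp2, Eif4g1 and Eif4b. Over all genes tested, 111 (0.767%) did so. Another 2 members, Eif4a1 and Eif2b3, had every deeper library below every shallower one, against 134 of all genes (0.926%). Eif4g1, the main scaffold of eIF4F, measured 2677 to 3587 in the shallower libraries and 4676 to 6276 in the deeper ones. Its repeats were 1.75 and 1.53 times as high as the first libraries. Eif4b, a cofactor of the eIF4A helicase, measured 2351 to 3467 and 3552 to 4298, so its 2 sets nearly touched. Eif4a1, the main helicase of eIF4F, measured 9524 to 11270 in the shallower libraries and 4453 to 8336 in the deeper ones. Eif2b3, a subunit of eIF2B, measured 810 to 903 and 375 to 755.

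**Figure D2:**
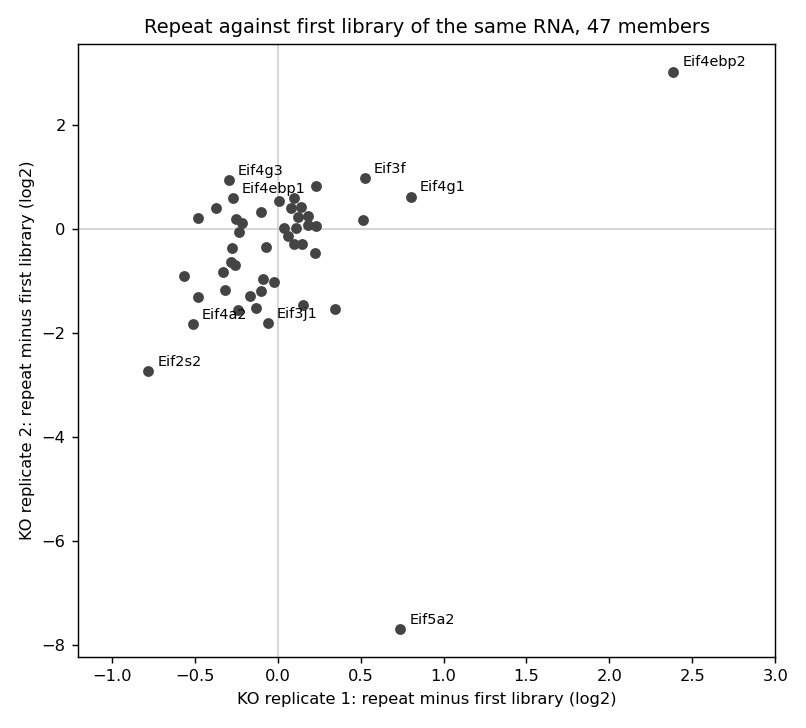
Each point is 1 of the 47 members tested, with the repeat-minus-first difference in log2(normalized count + 1) for KO replicate 1 on the horizontal axis and for KO replicate 2 on the vertical axis. Eif4ebp2 stands alone at 2.38 and 3.02, and 13 members lie more than 1 log2 unit below 0 on the vertical axis and none on the horizontal one. The share of all genes past that cut was not counted.

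The remaining members differed less between first and repeat libraries of KO replicate 1 than of KO replicate 2. The median absolute difference over the members was 0.23 log2 units in replicate 1 and 0.60 in replicate 2, and over all genes it was 0.42 and 0.79. In both pairs together, 15 members were higher in both repeats, 18 were lower in both and 14 went opposite ways, with a median difference of -0.10, beside -0.12 over all genes. No member passed an adjusted p of 0.05 in limma (0% of all genes did). At an unadjusted p under 0.05 there were 3, Eif4ebp2, Eif4g1 and Eif5, which is 6.38% of the members beside 6.85% of all genes. edgeR also called 0 members and had 7 at an unadjusted p under 0.05. Eif5, the GTPase activator of eIF2, measured 8210 and 6338 in the first libraries and 5561 and 3395 in the repeats (log2 difference -0.73 ± 0.18). Eif1a, a scanning factor, had a difference of -0.90 ± 0.32, Eif4a2, the second eIF4A helicase, -1.17 ± 0.45, and Eif3f, an eIF3 subunit, 0.75 ± 0.21.

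The repeat library of KO replicate 2 was more than 1 log2 unit below its first library in 13 members, and above it in Eif4ebp2 alone. The share of all genes past this cut was not counted. In this pair the median absolute difference over all genes, 0.79, was larger than the 0.60 over the members. Eif5a2, a paralog of the elongation and initiation factor gene Eif5a, measured 402 in the first library and 0.946, the value of 1 read, in the repeat. In the other 8 libraries it lay between 360 and 922. Eif2s2, the beta subunit of eIF2, measured 600.1 in the first library and 88.9 in the repeat, and Eif3j1, a loosely bound eIF3 subunit, measured 172 and 48.2. In KO replicate 1 no member was more than 1 log2 unit lower in the repeat.

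In KO against WT, no member passed an adjusted p of 0.05 in limma, as 1 gene of 14473 did (0.00691%). At an unadjusted p under 0.05 there were 10 members (21.3%, beside 12.1% of all genes), of which 5 were higher in KO (Eif4ebp2, Eif3f, Eif3i, Eif3k and Eif3h) and 5 lower (Eif2s2, Eif5b, Eif3a, Eif5 and Eif4a2). The median log2 difference of the 47 was 0.10, beside -0.07 over all genes, with 26 higher and 21 lower. DESeq2 on the recovered reads called 3 members, Eif4ebp2 and Eif3f higher and Eif5 lower, beside 4.03% of all genes, and edgeR called 0, with 9 members at an unadjusted p under 0.05.

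The 13 eIF3 subunit genes did not move as a block in KO against WT. In value, 9 were higher and 4 lower, from -1.67 ± 0.57 for Eif3a to 1.46 ± 0.36 for Eif3f. Eif3f measured 3318 and 2005 in WT, 5278 and 5292 in the first libraries of the KO replicates, and 7609 and 10405 in their repeats. All 4 KO libraries were above both WT replicates (limma adjusted p = 0.345). The difference was 1.03 with the first KO libraries alone and 1.10 without WT replicate 2. Eif3i measured 2918 and 1025 in WT and 3686 to 4955 in the KO libraries (1.35 ± 0.47, limma adjusted p = 0.367). Eif3h, Eif3k and Eif3l also had all KO libraries above both WT replicates. The share of all genes with this pattern was not counted.

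Eif3a, the largest subunit and the scaffold of the complex, went the other way. It measured 1885 and 5941 in WT, 1655 and 1002 in the first KO libraries, 1475 and 408 in the repeats, 5617 and 5287 in IL4-/-, and 6057 and 4834 in IL4-/-KO. WT replicate 1 was thus close to KO replicate 1, and WT replicate 2 close to the libraries without Il4. The KO against WT difference of Eif3a was -0.84 without WT replicate 2 and -2.50 without WT replicate 1.

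Lower values in KO than in WT were also found for Eif5b, the GTPase that joins the ribosomal subunits, and for all 3 genes of eIF2. Eif5b measured 507 and 2223 in WT, 415 and 172 in the first libraries of the KO replicates, and 390 and 88.0 in their repeats (-2.21 ± 0.76, limma adjusted p = 0.367). Without WT replicate 2 this difference was -1.14. Eif2s2 measured 1155 and 2494 in WT, and 1086, 600.1, 633 and 88.9 in the KO libraries (-1.64 ± 0.56, limma adjusted p = 0.367), and -0.98 without WT replicate 2. Eif2s1, the alpha subunit that stress kinases phosphorylate, had a difference of -0.68, and Eif2s3x, the gamma subunit, -0.62. The counting strand was not given in the sources used here, so reads of Eif5b and Rev1, of Eif2s2 and the a gene, and of Eif4a2 and Rfc4, which overlap on opposite strands, cannot be told apart.

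**Figure D3:**
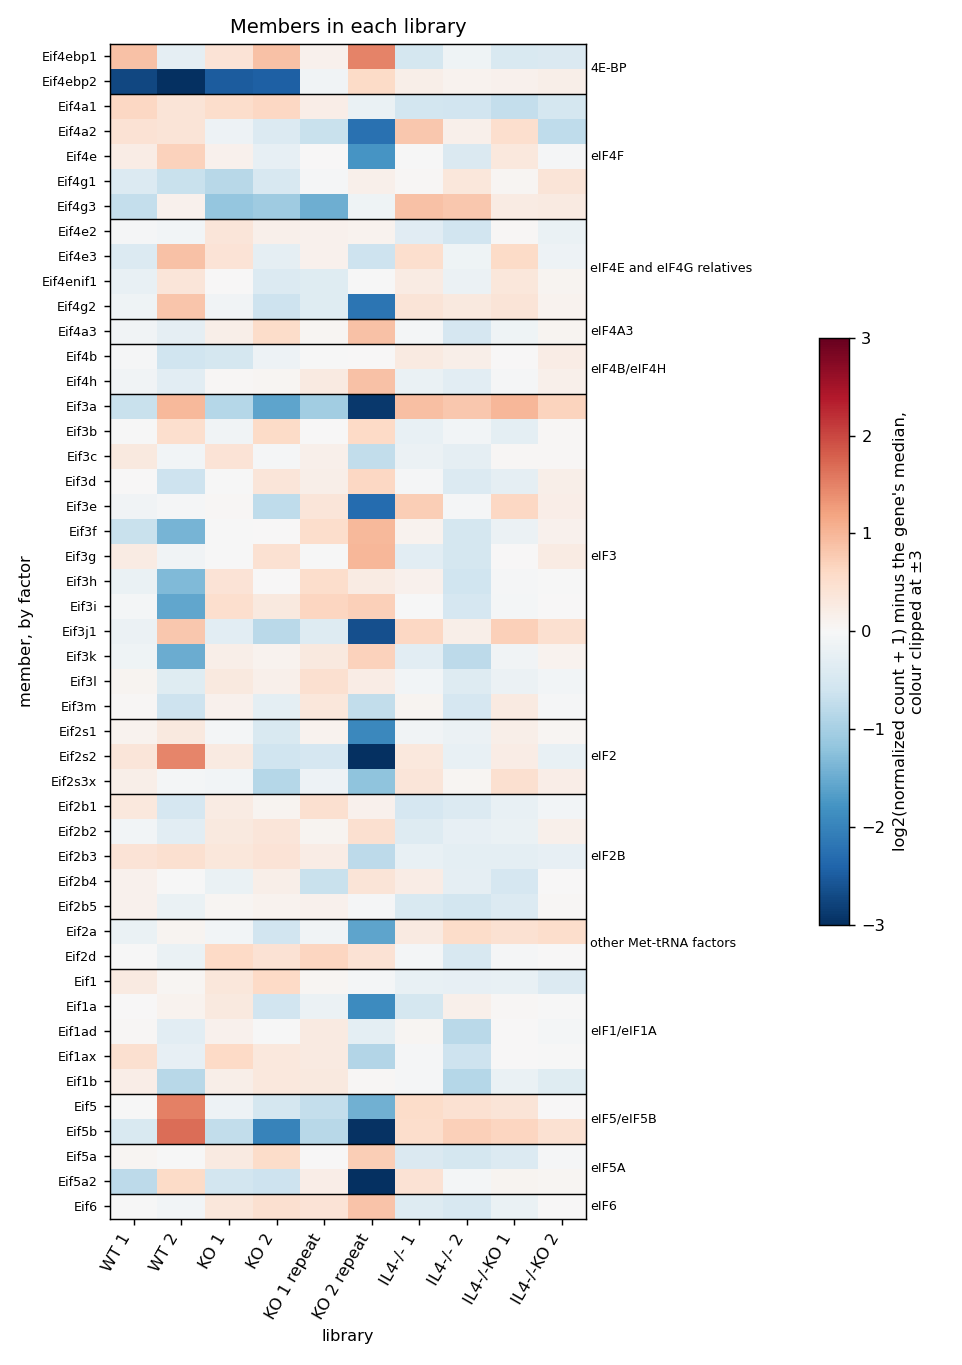
Each row is 1 of the 47 members tested, grouped by factor, and each column 1 library; colour is log2(normalized count + 1) minus the median of that gene over the 10 libraries, clipped at 3 in either direction. The shallower libraries stand out in Eif4ebp2, and WT 2 and KO 2 repeat stand out in opposite directions in Eif2s2, Eif5 and Eif5b.

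WT replicate 2 and the repeat library of KO replicate 2 lay at opposite ends for many members. Eif5 measured 9173 and 26228 in WT replicates 1 and 2, and Eif4g2, an eIF4G relative that works without eIF4E, 22679 and 44496. The lowest of the 10 libraries for both was the KO 2 repeat, with 3395 and 5490. Across the 47 members, the difference of WT replicate 2 from replicate 1 and that of the KO 2 repeat from its first library had Pearson r = -0.53 and Spearman rho = -0.57, beside 0.03 and -0.06 across all genes. These are correlations across genes within single library pairs, and genes are not independent replicates. The summed epithelium markers were 170278 in WT 1 and 25270 in WT 2, and 96433 in the first and 131756 in the repeat library of KO 2. Their part in these differences was not tested.

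Among the members, the KO against WT difference also went with transcript length, with Spearman rho = -0.56 over 47 members beside -0.22 over all 14189 genes tested that had a length. For IL4-/-KO against KO rho was 0.65, beside 0.29. Both comparisons share the KO libraries. Between WT replicates 1 and 2, which share a genotype, the difference of replicate 2 from 1 gave a rho of 0.51, beside 0.19 over all genes.

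When Tgfbr2 was deleted on the background without Il4, members differed little. In IL4-/-KO against IL4-/-, all from deeper libraries, differences ran from -0.61 for Eif4a2 to 0.56 for Eif3k. The median was 0.17, beside -0.03 over all genes, with 33 members higher and 14 lower, and without IL4-/- replicate 2 the median was -0.018. That replicate is the one with the high macrophage and monocyte markers, whose part in the members' values was not tested. No member passed in limma (0% of all genes) or in DESeq2 (0.359% of all genes), and none had an unadjusted p under 0.05 (3.25% of all genes). edgeR called 0 members, also with none at an unadjusted p under 0.05.

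The smallest unadjusted p-values in IL4-/-KO against IL4-/- belonged to Eif3g, an eIF3 subunit (0.55 ± 0.33), Eif4e2, a cap-binding relative of eIF4E (0.38 ± 0.26), and Eif6, which keeps the ribosomal subunits apart (0.35 ± 0.26), among members with higher values. Among those with lower values they were Eif4g3, a paralog of Eif4g1 (-0.59 ± 0.38), Eif4a2 (-0.61 ± 0.47) and Eif5 (-0.31 ± 0.49), all with a limma adjusted p of 1. Eif4g3 measured 4164 and 3940 in IL4-/- and 2667 and 2729 in IL4-/-KO, without overlap. Eif4a2 measured 6236 and 3952 in IL4-/- and 5058 and 2097 in IL4-/-KO, which overlapped.

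**Figure D4:**
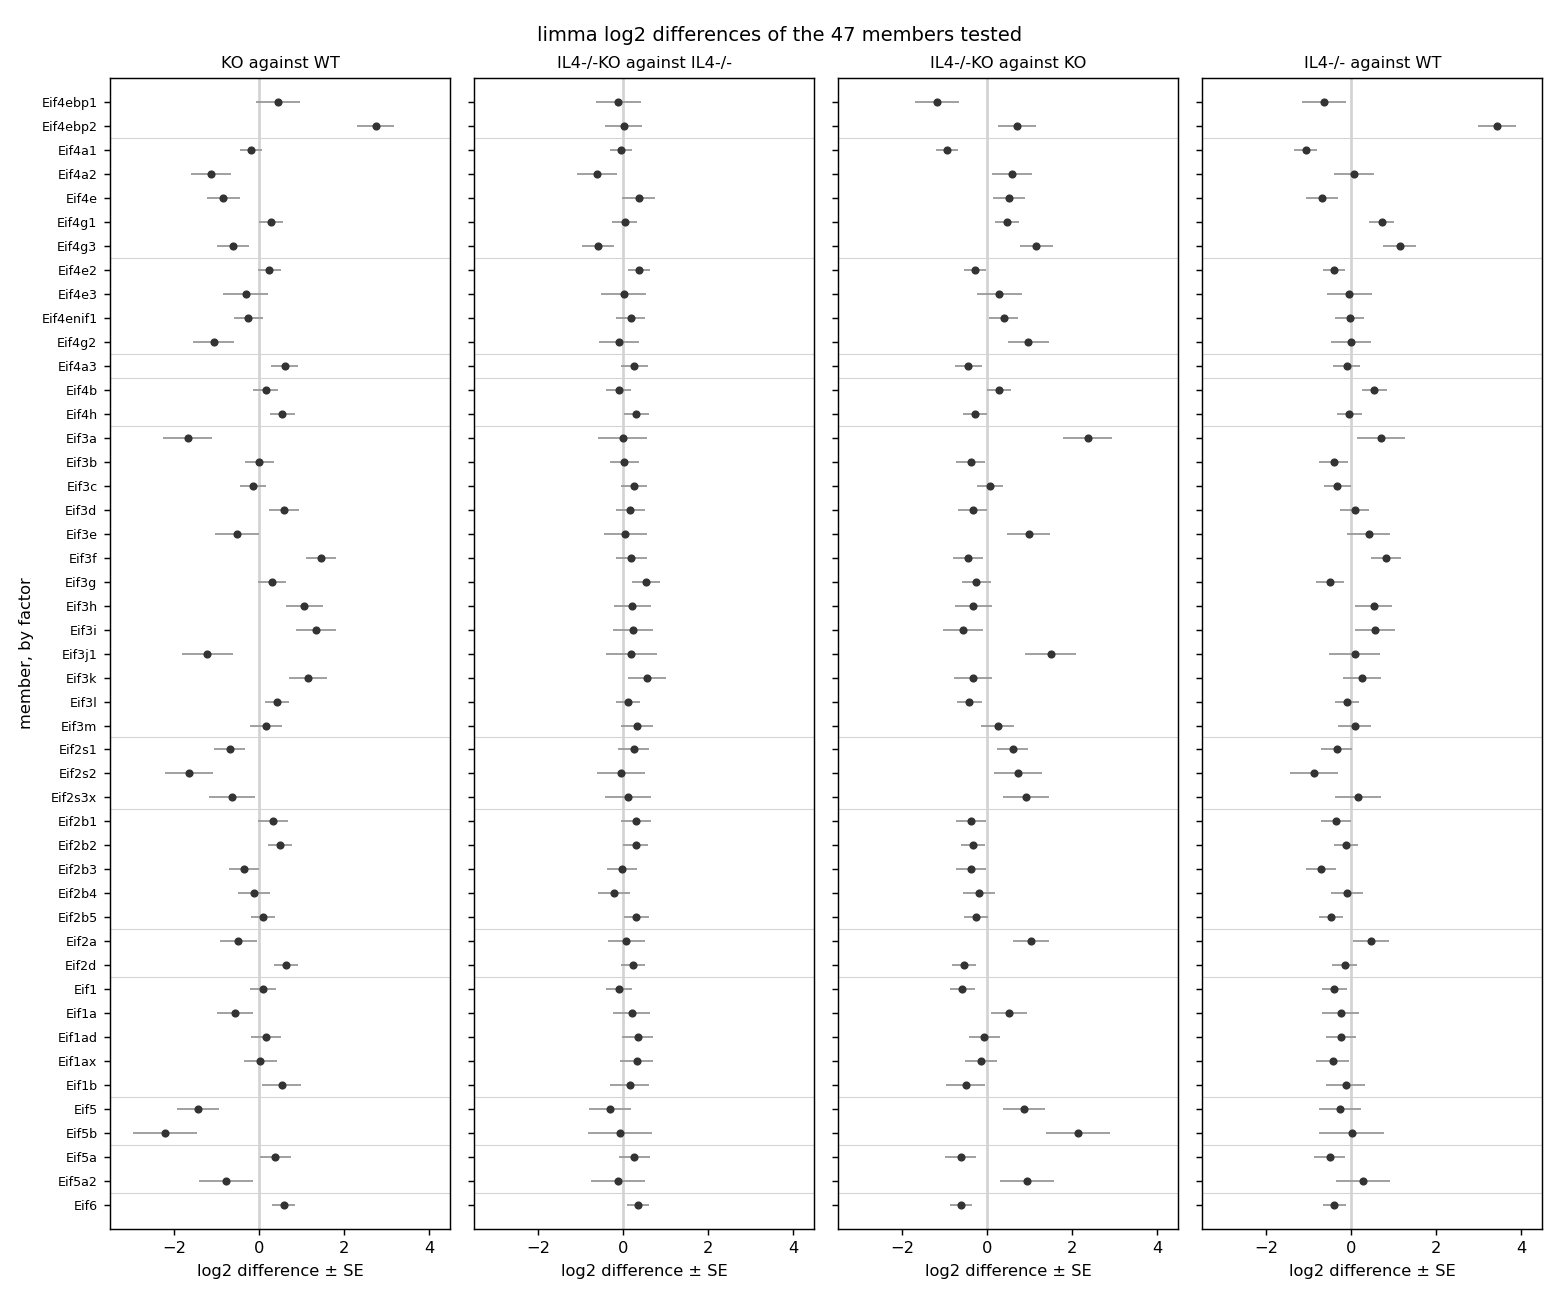
Log2 difference of each of the 47 members tested in 4 comparisons, grouped by factor in the same order as in the map by library; points are limma estimates and bars are 1 SE in either direction. IL4-/-KO against IL4-/-, all from deeper libraries, stays between -0.61 and 0.56, while KO against WT runs from -2.21 for Eif5b to 2.74 for Eif4ebp2. The latter sets shallower WT libraries against averages of shallower and deeper KO libraries. With the first KO libraries alone, KO against WT ran from -1.99 to 1.20. Without WT replicate 2, the Eif5b difference was -1.14.

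In IL4-/-KO against KO, the members' median difference was -0.14, beside -0.07 over all genes, with 22 higher and 25 lower. No member passed in limma (0% of all genes), and 7 had an unadjusted p under 0.05 (14.9%, beside 11.7% of all genes). Eif3a was 2.36 ± 0.57 higher (limma adjusted p = 0.321), with all libraries of IL4-/-KO above all KO libraries. Eif5b was 2.15 ± 0.76 higher (limma adjusted p = 0.367), at 1090 and 948 in IL4-/-KO and at most 415 in the KO libraries. Eif4g3 was 1.16 ± 0.38 higher, with 2667 and 2729 against 823 to 2080. How many of all genes lack overlap between IL4-/-KO and KO libraries was not counted.

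Lower in IL4-/-KO than in KO were Eif4a1, by a log2 difference of -0.94 ± 0.26 (limma adjusted p = 0.331), and Eif6, by -0.62 ± 0.26 (limma adjusted p = 0.428). Eif4a1 measured 4453 and 5073 in IL4-/-KO, 10485 and 11270 in the first libraries of the KO replicates, and 8336 and 6339 in their repeats. Its difference was -0.61 against the repeats, the libraries of the same set, and -1.19 against the first libraries. The remaining members with an unadjusted p under 0.05 were Eif3j1 (1.50) and Eif2a (1.03), both higher. DESeq2 called Eif3a and Eif4a1, beside 2.77% of all genes, and edgeR called 0, with 6 members at an unadjusted p under 0.05. The KO libraries are shared with the KO against WT comparison, so the opposite signs of Eif3a and Eif5b in these comparisons are not separate observations.

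For IL4-/- against WT, in which every library of one genotype was deeper than every library of the other, the members' median was -0.10, beside 0.01 over all genes. By value 18 were higher and 29 lower. No member passed in limma (0% of all genes), and 4 had an unadjusted p under 0.05 (8.51%, beside 4.08%): Eif4ebp2, Eif4g3 and Eif4g1 higher and Eif4a1 lower. Eif4a1 measured 11265 and 9524 in WT and 4996 and 4861 in IL4-/- (-1.07 ± 0.26). The difference was -0.49 with the library set term, which is estimated from the KO libraries alone. Eif4g1 had 0.72 ± 0.29, which was 0.01 with that term. Eif4g3 measured 1378 and 2454 in WT and 4164 and 3940 in IL4-/- (1.14 ± 0.38). Eif2b3 (-0.71 ± 0.35) and Eif4e (-0.69 ± 0.39) followed among those with lower values. DESeq2 called Eif4ebp2 alone, beside 0.2% of all genes, and edgeR called 0, with 4 members at an unadjusted p under 0.05.

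The interaction compares the Tgfbr2 difference without Il4 with that in its presence. No member passed in limma (0% of all genes), and 2, Eif4ebp2 and Eif3f, had an unadjusted p under 0.05 (4.26%, beside 3.52%). DESeq2 called Eif4ebp2 (DESeq2 adjusted p = 0.0183), beside 0.252% of all genes, and edgeR called 0, with 2 members at an unadjusted p under 0.05. Eif3f had an interaction of -1.26 ± 0.51. Positive values with the smallest p belonged to Eif4e (1.20 ± 0.55), Eif3a (1.66 ± 0.81) and Eif2s2 (1.60 ± 0.79), and Eif3i (-1.11 ± 0.67) followed among the negative ones. The members' median was 0.13, beside 0.00 over all genes.

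Of the cap-binding genes, Eif4e itself measured 2478 and 3415 in WT, 2326 and 1778 in the first KO libraries, 2121 and 615 in the repeats, 2104 and 1556 in IL4-/-, and 2642 and 2061 in IL4-/-KO. The KO 2 repeat was the lowest, and both WT replicates lay above all KO and IL4-/- libraries, while IL4-/-KO overlapped with WT. How many of all genes show this order was not counted. Eif4e2 lay between 2324 and 4469 over the 10 libraries. Eif4e3, another relative of eIF4E, lay between 641 and 1825, with both ends again in KO 2 repeat and WT 2. The 5 genes of eIF2B ranged over 0.70 to 1.26 log2 units from lowest to highest library, less than the 1.69 to 4.79 of the 3 genes of its substrate eIF2. This order of ranges is a description.

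Per kilobase of longest annotated transcript, averaged over the 8 replicates, the level was highest for Eif5a (20104 normalized counts per kilobase), the gene of a factor modified with hypusine, and next for Eif1 (12737), which guards start codon choice. The lowest level among members tested was that of Eif3j1 (66.7). Eif4ebp1 stood at 337 and Eif4ebp2 at 231, below Eif4a1 at 4114. Eif1 resembles Eif1b, Eif1a resembles Eif1ax, and Eif5a and Eif3j1 each have near-identical copies elsewhere in the genome, so their counts depend on how shared reads were assigned, which was not given in the sources used here.

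Many mRNAs of the translation machinery start with a terminal oligopyrimidine tract (TOP), a C followed by pyrimidines at the cap, which ties their translation to mTORC1. Promoters from RefSeq (GRCm38.p6) were found for 38 of the 48 members. A C followed by at least 4 bases that are each C or T, on the gene's own strand from the annotated start, was present in 2 of the 38 (5.26%) and in 813 of 27025 genes (3.01%). The starts of these members, 30 bases before and 20 after, are shown because both genes are described above; capitals mark the run of 11 pyrimidines from the annotated start. Eif3f lies at chr7:108934385-108934434 on the plus strand and Eif2s3x at chrX:94212632-94212681 on the minus strand.
Eif3f: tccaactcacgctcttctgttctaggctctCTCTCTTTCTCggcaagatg
Eif2s3x: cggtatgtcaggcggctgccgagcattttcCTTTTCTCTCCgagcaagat
Eif3f was higher and Eif2s3x lower in KO than in WT by value, so these starts did not go with 1 direction. A match describes the letters at an annotated start and not a start site measured in these cells.

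Beyond the members, 5 lists of translation genes were read in the same fit, and limma called 0 of their 54 genes in every comparison, with 0 (IL4-/-KO against IL4-/-, where 3.25% of all genes did) to 8 (KO against WT, 14.8% beside 12.1% of all genes) at an unadjusted p under 0.05. edgeR also called 0. DESeq2 called Eef2 in KO against WT, 1.85% of these genes beside 4.03% of all genes, and none in the other genotype comparisons. Of 10 further genes of initiation and its regulation, factors and repressors together, 9 had lower values in KO than in WT. All 10 had higher values in IL4-/-KO than in KO, a comparison that shares the KO libraries. Their median differences were -0.64 and 0.67, beside -0.07 over all genes in both comparisons. The share of all genes in each direction was not counted. Unadjusted p-values under 0.05 were found for 3 of these 10 in each comparison, where 12.1% and 11.7% of all genes had them. Abcf1, an ABC protein that binds eIF2, had -0.80 ± 0.28 in KO against WT, and Ddx3x, a helicase that assists scanning, had 1.45 ± 0.40 in IL4-/-KO against KO. Of 11 elongation and termination factors, 7 were higher in KO than in WT by value, led by Eef2, the translocation factor, with 1.46 ± 0.42.

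The kinases mTORC1 and MNK act on the 4E-BPs and eIF4E. Of 14 genes of these kinases, their regulators and their downstream targets, activators and inhibitors together, 9 were higher and 5 lower in KO than in WT. The smallest p belonged to Rps6kb1, which codes for an S6 kinase, with -1.38 ± 0.51 against WT and 1.56 ± 0.51 in IL4-/-KO against KO. Among 14 genes of eIF2 alpha kinases, phosphatase and stress response, 6 were higher and 8 lower, with the smallest p for the phosphatase subunit Ppp1cb (-1.60 ± 0.42). Of 5 genes of poly(A) tail binding, 2 were higher and 3 lower, with Paip2, an inhibitor of the poly(A)-binding protein, at -0.88 ± 0.39.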

How the data were processed

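RNA was amplified with SMART-Seq v4 and made into libraries with KAPA Hyper Prep, per the labels' protocols, without molecular identifiers. Limits drawn from read counts therefore cover counting error only. The ± values are limma SEs, which come from the spread between replicates or between library pairs. Per the submitters' processing notes, bcl2fastq 2.18.0, STAR and DESeq2 were used with mm10. The counter, annotation and strand setting are not given in the sources used here. The deposited signal held scaled read counts, with a single scaling factor for each library. Dividing by the worth of 1 read gave whole reads for 100% of values (tolerance 0.001 reads), and 1 read was worth 0.644 to 1.47 normalized counts. The 7 rows without a gene name, at most 0.0205% of a library, were left out.

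Genes with at least 10 normalized counts in 2 of the 8 replicates were tested (14473). The main test was the two-sided moderated test of limma 3.58.1, run on log2(normalized count + 1) with the trend option, all 4 genotypes in 1 fit, libraries of a KO replicate averaged, 4 residual degrees of freedom, and Benjamini-Hochberg adjustment over all genes at 0.05. Folds on this scale understate changes of low genes. edgeR 4.0.16 (quasi-likelihood) and DESeq2 1.42.0 were run on recovered reads, with libraries of a KO replicate summed. The self-test on simulated data used the same code. Gene positions and lengths came from GENCODE M21 (longest basic transcript). Members and lists were chosen with earlier results of these data known. Named genes were the 4E-BPs, eIF4E, eIF4G and eIF4A genes, the 3 higher and 3 lower members with the smallest p in each comparison, extremes of level, called or smallest-p genes of each list, and the 5 genes most correlated with Eif4ebp1. Any others named were chosen after their values were seen. Alternatives changed the pseudocount, filter, scaling, variance trend, genotypes in the fit, KO libraries used, replicate block, transcript length trend, epithelium covariate and replicates left out; 2 fits of all 10 libraries, with and without a library set term, were added after seeing the data.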

Additional observations from a re-analysis of the deposited data

Results flagged for a closer look

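Among the 4 KO libraries, 1 library stood apart from the others in 2 members. Its gap to its nearest neighbour was a larger share of the whole range than Dixon's critical value for 4 samples allows. With 4 independent samples, chance gives this in about 1 in 20 groups, and 47 members were tested. The 4 libraries are 2 libraries of each of 2 RNAs, so that rate need not hold here. How many of all genes show such a gap was not counted. For Eif2b3 the gap was 0.843 of the range on the log2 scale, with the KO 2 repeat at 375 normalized counts and the others at 755 to 860. For Eif5a2 it was 0.905, with the KO 2 repeat at 0.946 and the others at 402 to 706.

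Eif2s1 was lower in both KO replicates (libraries averaged) than in either WT replicate and higher in both IL4-/-KO replicates than in either IL4-/- replicate, with an interaction of 0.94 on the log2 scale (limma adjusted p = 0.988). By single library, Eif2s1 in the KO 1 repeat, at 4183, was above WT replicate 1, at 4160. In KO replicate 2 it measured 2821 in the first library and 1020 in the repeat. Eif3f was higher in both IL4-/- replicates than in either WT replicate and lower in both IL4-/-KO replicates than in either KO replicate (libraries averaged), with an interaction of -1.26 (limma adjusted p = 0.988). The first KO libraries of Eif3f alone, at 5278 and 5292, lay between the IL4-/-KO replicates at 4691 and 5817. Neither interaction passed the test across all genes, and how many of all genes show such patterns was not counted. For Eif2s1, the first KO libraries alone gave an interaction of 0.71, and for Eif3f they gave -0.84.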

How the results depend on the processing

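Over all alternatives, 132 counts of members called were the same as reported and 6 were higher. With DESeq2 the count was 3 in KO against WT, 2 in IL4-/-KO against KO, 1 in IL4-/- against WT and 1 in the interaction. In repeat against first KO libraries it was 1 with no filter and 1 with quantile normalization, in each case Eif4ebp2. The fit without a filter held 17363 genes. Leaving out 1 replicate at a time gave 0 members called throughout, in every genotype comparison and the interaction. The members' median log2 difference moved with single replicates: from -0.081 (without WT replicate 2) to 0.28 (without WT replicate 1) in KO against WT, from -0.018 to 0.29 in IL4-/-KO against IL4-/-, from -0.14 to 0.11 in IL4-/-KO against KO, from -0.26 to 0.06 in IL4-/- against WT, and from 0.00 to 0.24 in the interaction, so the sign of the median in the 4 genotype comparisons changed with single replicates left out. It was 0.069 in IL4-/- against WT with the library set term, and in repeat against first KO libraries it was -0.15 with quantile normalization and -0.16 with TMM rescaling. Members with an unadjusted p under 0.05 in KO against WT numbered from 2 (without WT replicate 2) to 15 (without WT replicate 1), and in IL4-/-KO against KO from 1 (without IL4-/-KO replicate 1) to 13 (without KO replicate 1). With the replicate block, 0 members were called and the median in KO against WT was 0.10. Across genes, deviations of same-numbered replicates were correlated at -0.36 to -0.20 between WT and each other genotype. Among KO, IL4-/- and IL4-/-KO the correlations were 0.19 to 0.24. With 2 replicates per genotype, these values cannot decide whether the numbers pair the samples. Quantile normalization shifted the median of all genes in KO against WT by 0.11. The causes of these moves were not tested. Having 2 replicates per genotype limits what these tests can call.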
